A study of Mus musculus with 4 samples.

Results

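Trh encodes the precursor of thyrotropin-releasing hormone (TRH). It was read by 1 probe set among 22690 on the arrays, and it is 1 of the 12393 genes with a probe set of their own. The gene was chosen by its high signal in mouse embryonic stem (ES) cells and by its difference between the Brg1 knockdown and the control, so its signals, ranks and difference are given as a description with no test. The 2 knockdown arrays came from R1 ES cells, a mouse line, infected with lentivirus for a short hairpin RNA (shRNA) against Brg1. The 2 control arrays came from R1 ES cells infected with an shRNA against the glucose transporter GLUT4. Both groups were harvested 67 h after infection, and both carry the virus and a hairpin, so uninfected cells are no part of the comparison. The labels name 1 hairpin target per group and duplicate infections. The p-values below measure only the spread between those duplicates.

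TRH is a short peptide that the hypothalamus releases to make the pituitary secrete thyrotropin and prolactin. Its precursor holds several copies of the hormone's sequence, which proprotein convertases cut out at basic residues, carboxypeptidases trim, glutaminyl cyclase closes at one end and the amidating enzyme Pam amidates at the other. Thyroid hormone represses the gene in the hypothalamus through its receptors, which closes the feedback loop of the thyroid axis, while CREB and leptin signalling through STAT3 raise its transcription there. Brg1 is the ATPase of the SWI/SNF complexes, which move nucleosomes at promoters and enhancers.

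The Trh promoter is printed because the factors described further on are known for acting on it. The sequence is from RefSeq on GRCm38.p6, chr6:92244601-92244900 on the minus strand, read in the direction of the gene with 250 bases before the start and 50 after it. Capitals mark TGACCTCA, 57 to 50 bases before the start, and TATAA, 26 to 22 bases before it.
Trh promoter: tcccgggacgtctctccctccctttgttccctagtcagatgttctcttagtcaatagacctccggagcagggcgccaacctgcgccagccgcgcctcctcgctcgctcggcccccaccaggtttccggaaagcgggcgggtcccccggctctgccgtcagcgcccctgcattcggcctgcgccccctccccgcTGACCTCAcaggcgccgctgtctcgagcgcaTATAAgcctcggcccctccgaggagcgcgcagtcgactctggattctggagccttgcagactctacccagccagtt

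TGACCTCA resembles the CREB motif TGACGTCA and was found in 2.17% of the 32851 RefSeq promoter windows of the same length, searched on both strands as were all motifs here. In the human gene an element of these letters is known as a site shared by CREB and the thyroid hormone receptor. The nuclear receptor core motif AGGTCA lies on the other strand within the same letters, 57 to 52 bases before the start, and was found in 16.3% of the windows. TATAA was found in 24.9% of the windows. The Sp1 motif GGGCGG had 1 match, 117 to 112 bases before the start (35.7% of the windows). TGACGTCA (1.79% of the windows), the STAT motif TTCNNNGAA (8.30%) and the octamer ATGCAAAT (1.74%) are not in these 300 bases. G and C made up 67.0% of the Trh window, and the median over the windows was 52.7%. The window held 28 CpG dinucleotides, against a median of 7.

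Smarca4, which encodes Brg1, had signals of 652.1 and 621.5 in the knockdown, against 1186.6 and 1213.6 in the control, and by limma its log2 difference was -0.89 ± 0.08 (SE, adjusted p = 0.000232). Its RNA was thus lower on both knockdown arrays but still measured there. Slc2a4, which encodes GLUT4, had 20.9 and 23.9 in the knockdown and 11.7 and 19.2 in the control. It was under the level at which genes were tested, 23.9 for the mean over the arrays on the log2 scale described below.

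Trh had signals of 595.7 and 636.1 on the knockdown arrays, against 1497.2 and 1660.7 on the control arrays. The groups did not overlap, and even the brighter knockdown array lay below the dimmer control array. Signals were analysed as log2(signal + 20.01), and on that scale the 4 differences between a knockdown and a control array ran from -1.21 to -1.45. The arrays of one group lay much closer together, 0.09 apart in the knockdown and 0.15 apart in the control. The knockdown mean was 615.9 ± 28.6 and the control mean 1579 ± 115.6 (SD, n = 2 each), so that the knockdown held 39.0% of the control signal. The log2 difference was -1.33, or 2.51-fold lower on the scale with the added constant. Of all 7815 genes tested, 25.9% had both knockdown arrays below both control arrays, and 5.09% were lower by limma at an adjusted p under 0.05. Trh was chosen on this contrast, so nothing is read from its place among them. In bulk RNA, fewer cells with Trh and less Trh RNA per cell cannot be told apart.

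**Figure D1:**
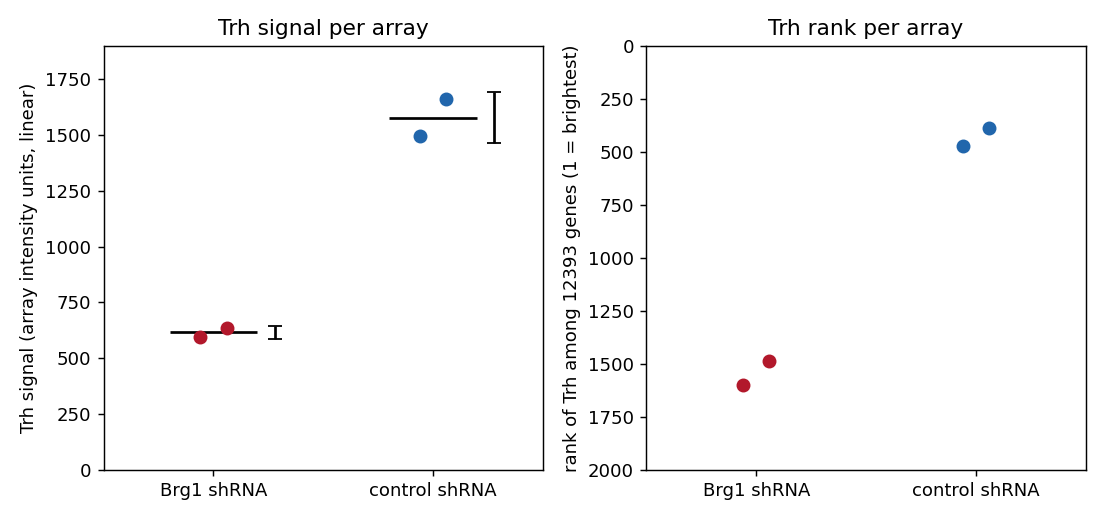
Left, Trh signal (linear intensity units) on each array; points are arrays, lines the mean and bars the SD of 2 arrays. Right, the rank of Trh among 12393 genes on the same arrays, with 1 as the brightest. The Brg1 shRNA arrays sit at 595.7 and 636.1, the control arrays at 1497.2 and 1660.7.

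Trh also stood lower in the order of genes by signal. It took rank 1601 and 1489 of 12393 genes in the knockdown, against rank 473 and 385 in the control. In the control it was therefore among the brightest 3.82% and 3.11% of genes, and in the knockdown among the brightest 12.9% and 12.0%. A rank compares probe sets that bind their targets unequally well, so it describes the same probe set across arrays and does not measure Trh RNA against other RNAs.

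The 8 genes that stood next to Trh in mean control signal stayed near their place. They were, above it, Calr, an endoplasmic reticulum chaperone, Myl12a, a myosin light chain, G3bp2, a stress granule protein, and Gatad2a, a NuRD subunit. Below it came Mcm3, a subunit of the replicative helicase, the ribosome assembly factors Nop53 and Wdr43, and the splicing factor Smu1. Their signals ran between 1377.9 and 1987.9 in the knockdown and between 1500.4 and 1676.0 in the control, and their ranks between 259 and 501 in the knockdown and between 380 and 471 in the control. Their log2 differences lay between -0.16 and 0.29.

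A wider range of bright genes is given as a description only, since Trh was chosen by its signal and its difference. These were the 422 other tested genes with a control mean at or above that of Trh. Their differences ran from -1.10 to 0.58, with a median of -0.05. The lowest were those of Psat1 (-1.10), an enzyme of serine synthesis, Rpl22 (-0.74), a ribosomal protein, and Atf4 (-0.65), a transcription factor of the amino acid response. The gap between the knockdown arrays was wider than that of Trh in 158 of the 422 genes, and the gap between the control arrays in 84. The median gaps of these genes were 0.07 in the knockdown and 0.08 in the control, so the Trh arrays of a group lay somewhat further apart than those of most genes this bright.

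**Figure D2:**
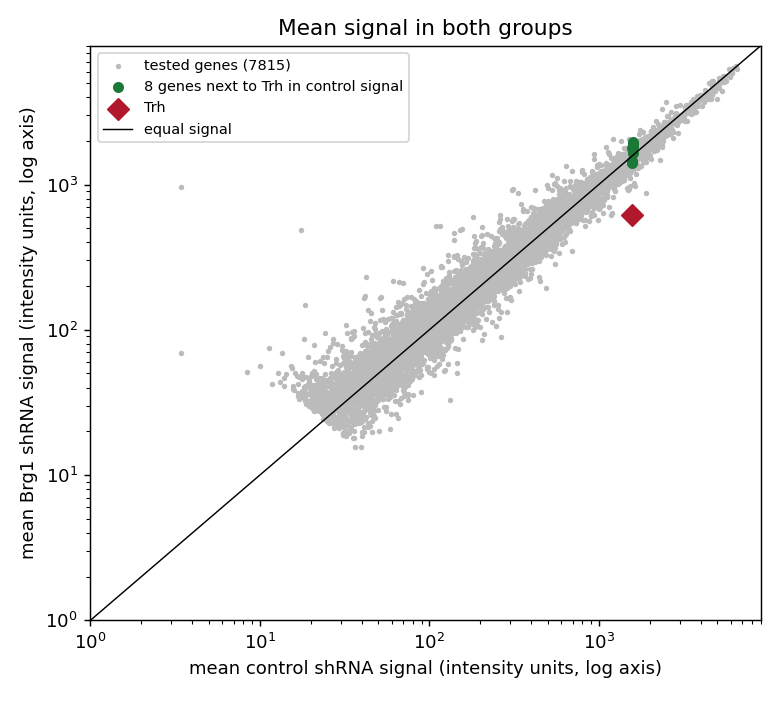
Mean Brg1 shRNA signal against mean control shRNA signal of the 7815 tested genes, both on log axes in intensity units. Trh (diamond) lies below the line of equal signal at 615.9 against 1579, while the 8 genes next to it in control signal (green) lie near the line.

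By log2 difference Trh was the third lowest of the 7815 tested genes, and by difference in signal units (-963.05, knockdown minus control) it was number 4. Just below it in log2 difference lay Mpzl2, an adhesion protein of epithelia, at -1.39, and 2610528J11Rik at -1.53. Just above it lay Dpys, a pyrimidine-degrading enzyme, at -1.26, and Chac1, which degrades glutathione, at -1.25. Mpzl2 and 2610528J11Rik had control means of 264.95 and 131.8, where the added constant weighs more. With the larger constant (50.02) Trh was the lowest of all tested genes.

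The genes whose pattern was most like that of Trh were ranked by the root mean square difference over the 4 arrays, after each gene's own mean log2 value had been taken off. This measure follows the difference between the groups that chose Trh, so the genes are listed as a description with no test. Pck2, the mitochondrial PEP carboxykinase, came first at 0.12, where the median over 7814 genes was 0.69. Its signals were 84.1 and 85.1 in the knockdown and 200.7 and 210.9 in the control. Chac1 followed at 0.14, with 215.2 and 172.0 in the knockdown and 463.4 and 507.4 in the control. Psat1 was at 0.15, with 904.2 and 832.9 in the knockdown and 1933.7 and 1845.2 in the control. These 3 had differences of -1.11, -1.25 and -1.10, all smaller in size than that of Trh.

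The other genes of the 8 lay between 0.18 and 0.19. They were Mpzl2, Smagp, a small transmembrane protein, Fam111a, a protease that acts at replication forks, Acot1, a cytosolic acyl-CoA thioesterase, and 2610528J11Rik. Their log2 differences ran from -1.53 to -0.99. The likeness rests on the chosen probe set in places: a second Mpzl2 probe set had 93.1 and 90.6 in the knockdown and 105.7 and 116.4 in the control, a log2 difference of only -0.23. In Psat1 the second probe set gave -0.93. The ninth gene was at 0.19, so the list ends at no clear step.

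**Figure D3:**
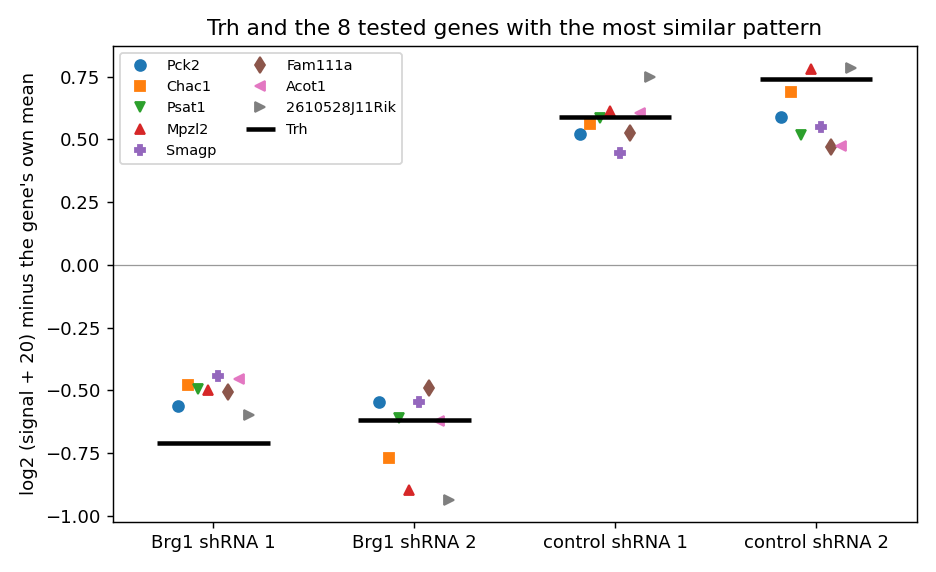
The log2 (signal + 20) values of Trh (black bars) and of the 8 genes most like it (symbols), each after taking off the gene's own mean over the 4 arrays. All 9 genes are below 0 on both Brg1 shRNA arrays and above 0 on both control arrays; 2610528J11Rik and Mpzl2 lie lowest on the second Brg1 shRNA array.

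The enzymes that would turn the precursor into TRH, or break TRH down, gave no gene past the test. Of 17 genes listed, 14 were measured and 9 reached the level for testing; 0 rose and 0 fell with limma at an adjusted p under 0.05, and 2 had an unadjusted p under 0.05, where 31.3% of all tested genes did. Among all tested genes 9.33% were higher and 5.09% lower. The median log2 difference of the 9 was 0.16, and that of all tested genes 0.04. Cpe, the carboxypeptidase that trims basic residues from prohormones, had signals of 76.2 and 59.9 in the knockdown and 95.7 and 101.6 in the control (log2 difference -0.44 ± 0.14, SE; adjusted p = 0.0726). With the mean of all its probe sets the difference of Cpe was -0.02. Pam, the amidating enzyme, had 52.1 and 73.5 in the knockdown and 45.4 and 38.5 in the control (0.41 ± 0.17, adjusted p = 0.14).

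The convertase Pcsk1, which cuts the precursor in hypothalamic neurons, was dim on every array, at 6.8 and 16.0 in the knockdown and 14.8 and 13.0 in the control. Furin, a convertase of most cells, had 49.0 and 47.1 in the knockdown and 28.2 and 40.8 in the control (0.33 ± 0.17, adjusted p = 0.222). Prep, a peptidase that can cleave TRH, had 430.9 and 466.1 in the knockdown and 396.6 and 399.0 in the control (0.16 ± 0.09, adjusted p = 0.257). Pgpep1, which takes the closed glutamine residue off TRH, had a log2 difference of 0.16, the convertase inhibitor Pcsk1n 0.10, the carboxypeptidase Cpd 0.09 and the convertase Pcsk6 -0.05. Qpctl, the Golgi form of glutaminyl cyclase, had 25.4 and 47.2 in the knockdown and 25.1 and 17.0 in the control, around the level for testing. Without knockdown replicate 1 the list had 3 calls, Cpe lower and Pam and Qpctl higher. Pcsk2, Cpm and Trhde were not analysed here.

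Neither TRH receptor reached the level for testing. Trhr, the receptor through which TRH acts on the pituitary, had 5.4 and 7.7 in the knockdown and 4.2 and 1.5 in the control by its brighter probe set. Trhr2, the second receptor of rodents, had 4.5 and 2.2 in the knockdown and 3.7 and 1.7 in the control. Both receptors were thus near the bottom of the signal range in each group. Of the 29 genes of receptor signalling and the thyroid axis, 22 were measured and 6 tested; 2 rose, 0 fell and 4 did not pass, where 9.33% of all tested genes were higher and 5.09% lower. Their median log2 difference was -0.04.

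Itpr3, an inositol trisphosphate receptor that lets calcium out of the endoplasmic reticulum, had 188.7 and 237.5 in the knockdown and 94.5 and 90.7 in the control. By limma it rose by 1.04 ± 0.13 (log2, SE; adjusted p = 0.00129). Slc5a5, the iodide transporter of the thyroid, had 81.3 and 60.9 in the knockdown and 22.7 and 27.5 in the control, and rose by 1.01 ± 0.17 (adjusted p = 0.00548). Its control signals lay at the level for testing, so its size depends on the added constant. Gna11, a G protein subunit that couples such receptors to phospholipase C, had 461.5 and 544.0 in the knockdown and 517.4 and 474.1 in the control (0.02 ± 0.10, adjusted p = 0.932). Gnaq, another such subunit, was under the level for testing, with 10.5 and 10.6 in the knockdown and 18.2 and 24.1 in the control. The phospholipases Plcb3 (-0.09) and Plcb4 (-0.34) and the thyroid hormone binding protein Crym (-0.20) did not pass. The thyrotropin genes Tshb and Cga, its receptor Tshr and thyroglobulin (Tg) had signals of at most 25 on any array.

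Among the factors known from the hypothalamus or pituitary for Trh transcription and thyroid hormone action, 21 of 26 were measured and 14 tested; 3 rose, 0 fell and 11 did not pass, where 9.33% of all tested genes were higher and 5.09% lower. Their median log2 difference was 0.12, and 6 of the 14 had an unadjusted p under 0.05, where 31.3% of all tested genes did. Sp1, which binds GC boxes such as the one in the printed promoter, had 792.7 and 709.4 in the knockdown and 512.1 and 464.8 in the control. It rose by 0.60 ± 0.09 (SE; limma, adjusted p = 0.00392), and its second probe set gave 0.66. Ncoa1, a coactivator of nuclear receptors, had 99.6 and 86.6 in the knockdown and 41.8 and 53.2 in the control, and rose by 0.75 ± 0.15 (adjusted p = 0.0119). Nr3c1, the glucocorticoid receptor, had 189.7 and 158.0 in the knockdown and 121.0 and 109.1 in the control, and rose by 0.52 ± 0.13 (adjusted p = 0.0277). The call of Ncoa1 was lost without control replicate 1 (adjusted p = 0.0547), and that of Nr3c1 when knockdown replicate 1 (0.101) or control replicate 2 (0.085) was left out.

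The factors that receive the thyroid hormone, cAMP and leptin signals did not pass the test. Thra, a thyroid hormone receptor, had 41.6 and 78.2 in the knockdown and 44.7 and 57.1 in the control, and the groups overlapped (0.14 ± 0.22, adjusted p = 0.702). Thrb, the receptor that mediates repression of Trh, had 15.3 and 24.8 in the knockdown and 19.5 and 15.2 in the control, under the level for testing. Creb1 had 40.5 and 42.4 in the knockdown and 62.1 and 45.5 in the control (-0.26 ± 0.17, adjusted p = 0.328), and its difference turned to 0.09 with the mean of all its probe sets. Stat3 had 435.0 and 451.8 in the knockdown and 365.9 and 401.9 in the control (0.20 ± 0.09, adjusted p = 0.184), and its target Socs3 had 407.1 and 432.6 in the knockdown and 478.7 and 463.9 in the control (-0.16 ± 0.09, adjusted p = 0.261). For none of these does a missed threshold show equal RNA levels.

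Of the others with higher signals, the immediate response genes Egr1 (0.10) and Nr4a1 (0.25) and the retinoid receptor Rxrb (0.16) also did not pass. Nor did the repressor Klf10 (-0.26), known to act on Trh in the hypothalamus. Of the dimmer retinoid receptors, Rxra had a log2 difference of 0.11. Rxrg had 56.3 and 48.5 in the knockdown and 72.2 and 73.8 in the control (-0.36, adjusted p = 0.119 by limma). The hypothalamic regulators Sim1, Otp and Pou3f2, which specify neurons that make TRH, and the leptin receptor Lepr had signals of at most 19.2 on any array. Arnt2, also under the level for testing, had 8.2 and 3.1 in the knockdown and 13.7 and 25.7 in the control. Sim1 and Pou3f2 went the other way and were higher on both knockdown arrays.

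Most other peptide hormone and neuropeptide precursors were dim. Of 80 listed genes 62 were measured and 6 reached the level for testing, of which 0 rose, 1 fell and 5 did not pass, where 9.33% of all tested genes were higher and 5.09% lower. Their median log2 difference was -0.01. Stc2, a secreted glycoprotein hormone, had 31.7 and 52.0 in the knockdown and 69.2 and 80.0 in the control, and by limma fell by 0.63 in log2 (SE 0.18, adjusted p = 0.0474). Its other probe set had 27.3 and 29.5 in the knockdown and 66.8 and 64.9 in the control. The adjusted p was 0.155 with knockdown replicate 1 left out, 0.0731 with control replicate 1 left out and 0.162 with control replicate 2 left out, so each of these ended the call.

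Apln, the precursor of apelin, had 61.9 and 91.9 in the knockdown and 35.3 and 53.8 in the control (0.58 ± 0.20, adjusted p = 0.0788). It passed with knockdown replicate 1 left out (adjusted p = 0.0177), with control replicate 2 left out (0.0323), and with the replicate number as a block (0.0251). Pomc, the precursor of melanocortins, had 44.5 and 53.7 in the knockdown and 61.6 and 46.0 in the control (-0.09, adjusted p = 0.75). Oxt, the oxytocin precursor, and Nmb, the neuromedin B precursor, had log2 differences of 0.06 and -0.01, and the granin Chga, a component of hormone granules, -0.02. The groups did not overlap in 2 of the 6 tested precursors, against 4706 of all 7815 tested genes.

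Most genes beside Trh on chromosome 6 did not pass the test, and of the 2 that passed 1 rose and 1 fell; with spike-in scaling the 2 calls were both higher, Tmem43 and Eogt. The 8 nearest measured genes on each side were taken from the RefSeq order of genes on GRCm38.p6; Rbsn on one side and Prickle2 and Adamts9 on the other lie between Trh and the nearest of them and were not analysed here. Of the 16 genes 15 were tested and 13 did not pass, where 9.33% of all tested genes were higher and 5.09% lower. The median log2 difference was 0.04, as over all tested genes. Mrps25, a mitochondrial ribosomal protein and the nearest measured gene on one side, had 434.2 and 438.7 in the knockdown and 525.8 and 507.7 in the control (-0.23 ± 0.09, SE; adjusted p = 0.104), and its difference turned to 0.03 with the mean of all its probe sets and to 0.08 with spike-in scaling. Magi1, a scaffold of cell junctions and the nearest on the other side, had 49.3 and 40.1 in the knockdown and 43.0 and 42.7 in the control (0.04 ± 0.16, adjusted p = 0.893).

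Tmem43, a protein of the inner nuclear membrane and number 6 on the side of Mrps25, had 151.8 and 124.8 in the knockdown and 82.0 and 77.2 in the control, and rose by 0.66 ± 0.14 (SE; limma, adjusted p = 0.012). Frmd4b, a scaffold of epithelial junctions and number 7 on the side of Magi1, had 70.3 and 58.4 in the knockdown and 105.9 and 97.1 in the control, a log2 difference of -0.53 ± 0.14 (adjusted p = 0.0357). The adjusted p of Frmd4b was 0.145 with knockdown replicate 2 left out, 0.152 with control replicate 1 left out and 0.069 with control replicate 2 left out, and both calls were lost with the mean of all probe sets of a gene.

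The remaining neighbours lay closer to 0, apart from Eogt, a glycosyltransferase of the endoplasmic reticulum, at 0.49 (adjusted p = 0.0573). On the side of Mrps25 the log2 differences were 0.08 for Nr2c2, a nuclear receptor, 0.13 for the taurine transporter Slc6a6, -0.12 for the RNA-binding protein Lsm3, 0.18 for the DNA repair protein Xpc and 0.21 for Chchd4, which imports proteins into mitochondria. On the side of Magi1 they were 0.17 for Slc25a26, a mitochondrial carrier, 0.02 for Lrig1, 0.04 for the metabolic enzyme Suclg2, -0.02 for Uba3, an enzyme of neddylation, and 0.03 for the transcription factor Mitf.

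**Figure D4:**
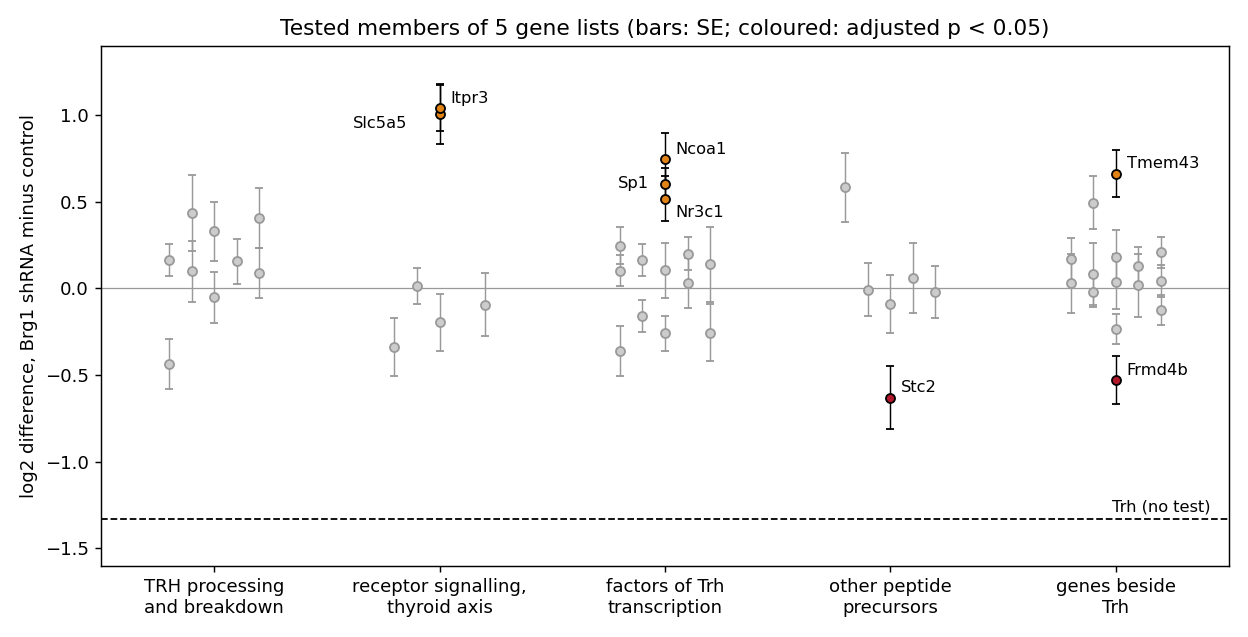
The log2 difference (Brg1 shRNA minus control) of the tested members of 5 gene lists, with SE bars; coloured points have an adjusted p under 0.05 by limma over all 7815 tested genes. The dashed line marks Trh at -1.33, chosen on this contrast and not tested. The lowest tested gene of the lists is Stc2 and the highest Itpr3.

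The cells carried the ES label by their markers. All 12 ES cell markers reached the level for testing, with signals between 479.0 and 5645.2, and 4 rose by limma (Nanog, Fgf4, Fbxo15 and Esrrb) while 0 fell, where 9.33% of all tested genes were higher and 5.09% lower. The call of Esrrb ended with knockdown replicate 2 (adjusted p = 0.0623) or control replicate 1 (0.0559) left out and with the mean of its probe sets (0.234), the second of which had a log2 difference of -0.04. The call of Fgf4 also ended with the mean of all probe sets (0.0711), and that of Fbxo15 with no filter (0.052) or no intensity trend (0.055). Pou5f1 had 2555.8 and 2417.8 in the knockdown and 2367.4 and 2579.2 in the control (log2 difference 0.01, adjusted p = 0.95). Sox2 had 1515.8 and 1272.4 in the knockdown and 1643.8 and 1608.2 in the control (-0.22, adjusted p = 0.125 by limma). Of the 12 markers 7 had an unadjusted p under 0.05, where 31.3% of all tested genes did. In 8 of the 12 the groups did not overlap, against 4706 of all 7815 tested genes. Summed over the list, the ES markers gave 21380.8 and 20920.8 in the knockdown and 19688.3 and 19784.2 in the control. Of 12 embryonic fibroblast markers 4 were tested and 0 passed by limma (2 at an unadjusted p under 0.05). Those 2 went opposite ways, Thy1 lower (log2 difference -0.48) and Acta2 higher (0.33) in the knockdown. The other tested ones were Fbln1 (0.27) and Loxl1 (0.20). The fibroblast sums were 400.2 and 462.8 in the knockdown and 360.7 and 375.7 in the control. The collagens Col1a1, Col1a2 and Col3a1 had at most 30.7 on any array. Of 11 measured neuronal and neuroendocrine markers 5 were tested and 0 passed (1 at an unadjusted p under 0.05), with sums of 1786.4 and 1747.0 in the knockdown and 1769.0 and 1814.3 in the control. Most of that sum was Stmn2, with 1306.5 and 1250.0 in the knockdown and 1393.4 and 1362.3 in the control (log2 difference -0.11, but 0.01 with the mean of all probe sets). Neurod1, a neuronal transcription factor and the next brightest, went the other way, with 212.0 and 198.4 in the knockdown and 131.1 and 167.5 in the control (0.42 ± 0.13, SE; limma, adjusted p = 0.06). It passed with the mean of all probe sets (adjusted p = 0.0283), spike-in scaling (0.0137) or control replicate 2 left out (0.0194). Snap25, Syt1, Chgb, Scg2 and Isl1 stayed at or below 15.3. The share of these markers in the difference of Trh was not tested. Of 8 primitive endoderm markers only Dab2 was tested and it did not pass, with sums of 193.1 and 222.2 in the knockdown and 189.4 and 205.2 in the control.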

How the data were processed

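RNA of 4 samples was read on 1 Affymetrix array each. The deposited values are linear intensity units per probe set, made by the authors with GCOS, per the submitters' processing notes; version and signal algorithm: not given in the sources used here. Each array's values had a mean of 200.1 after 2% was left out at each end. Of 22690 probe sets, 64 were controls, 20380 had 1 gene in the platform annotation, 691 several and 1555 none; 20351 symbols were updated by Entrez ID through RefSeq (GRCm38.p6).

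The brightest probe set of each gene was taken as log2(signal + 20.01), those ending in _x_at only where no other existed. A gene was tested if its mean log2 value over the arrays reached the 40th percentile over non-control probe sets (23.9 in signal units). The 7815 of 12393 genes that did were tested with limma 3.58.1 in R 4.3.3 (lmFit, eBayes with intensity trend, two-sided). Benjamini-Hochberg adjustment was over all of them, with a threshold of 0.05. The fit was tested on simulated data. The number of arrays, 2 per group, limits the precision.

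The gene, the lists and the naming rule were chosen with earlier results of these data known. Named are Trh, the shRNA targets, tested neighbours, the 8 genes most like Trh and the 8 next to it in level. Of the lists, members past the test or among the 6 brightest others are named. The rule of the brightest others was not kept for the cell type markers, of which only some are named. Others (Pam, Furin, Qpctl, Thra, Creb1, Rxra, Rxrg, the dim genes and the other genes of the lowest differences) were chosen after their values were seen. Alternatives changed the constant, scaling, filter, probe set rule, trend and block, and left out each array.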

Additional observations from a re-analysis of the deposited data

How the results depend on the processing

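Trh stayed lower in the knockdown under every alternative computed for it, with log2 differences between -1.40 and -1.26 without each array in turn, and between -1.38 and -1.29 with the other settings except 1. That one scaled each array to its 18 hybridisation spike-in probe sets, whose mean log2 signal was 9.29 in the knockdown and 9.62 in the control; it moved the median of all tested genes to 0.33, against 0.04 as deposited, and Trh to -1.01. Its place from the bottom ran from 1 to 5.

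All genes past the test numbered 1127 (729 higher, 398 lower), 433 without a filter, and between 601 (without knockdown replicate 2) and 1171 without each array in turn; 719 passed without control replicate 1. The split was 622 higher and 598 lower with median centring, 651 and 439 with quantile normalization, and 1413 and 30 with spike-in scaling. With the replicate number as a block 1187 passed, and with the numbers crossed 1478. The crossed block was added after seeing how the gaps between replicates were related. Over the tested genes, replicate 1 minus replicate 2 in the knockdown correlated at -0.136 with the same difference in the control.

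TRH processing genes had 1 call (Cpe) with median centring, 2 (Pam and Qpctl) with spike-in scaling, and 0 to 3 without each array. The receptor and thyroid list had 1 (Itpr3) with the stricter filter, and the factors 1 (Sp1) without a filter. The precursor list had 2 (Apln and Stc2) with the replicate block, 0 with the smaller constant, the stricter filter or no intensity trend, and 0 to 1 without each array; with spike-in scaling, also added after seeing the data for the lists, its 1 call was Apln. Genes beside Trh had 0 with the mean of all probe sets or no filter and 1 with the stricter filter. With the crossed block or no intensity trend they had 3 (Tmem43, Frmd4b and Eogt). With spike-in scaling and its shifted median, genes not past the test turned from lower to higher, among them Plcb3 (0.20), Crym (0.01), Socs3 (0.16), Klf10 (0.05), Lsm3 (0.20) and Stmn2 (0.22). The causes were not tested.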

Other observations

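Among precursors below the level for testing, Sct, which encodes the gut hormone secretin, had 28.1 and 39.7 signal units in the knockdown and 3.1 and 3.5 in the control. It was singled out after its values were seen. Its control signals are small beside the constant of 20.01 added before the log, which would set the size of a log2 difference, so none is given. Gal, the precursor of galanin, had 24.8 and 37.1 in the knockdown and 15.2 and 10.9 in the control, also under that level. Most listed precursors under it whose groups did not overlap were, like Sct and Gal, higher in the knockdown, among them Hcrt, Nts and Nppc. None of these was tested. Fewer went the other way. Adm had 8.1 and 3.9 in the knockdown and 15.7 and 16.7 in the control, and Iapp and Rln1 were also lower on both knockdown arrays.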
